A study of Mus musculus with 4 samples.

Results

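The genotype-by-wound interaction in mouse skin was taken as the difference, gene by gene, between the wound ratio of skin without the BLT2 receptor and the wound ratio of wild-type skin. A wound ratio is the log2 level 2 days after punching minus the log2 level in unwounded skin of the same genotype. All 4 arrays of the series enter each value, 1 array for each of BLT2KO_punched, BLT2KO, WT_punched and WT skin. The genes described are the 9111, of 19057 named on the array, whose probe had a detection p-value under 0.01 on all 4 arrays. The BLT2KO groups came from mice deficient in the BLT2 receptor and the WT groups from control mice, all on the C57Black6/J background. Per the labels, the tissue was a skin punch biopsy 5 mm across, and each group's RNA was a pool from 3 mice. The age and sex of the mice, the way the receptor was removed and the part of the body biopsied are not given in the sources used here.

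BLT2 is a G protein-coupled receptor for leukotriene B4 and for a hydroxy fatty acid made by the cyclooxygenase pathway, and it is known from keratinocytes, which close a wound by migrating over it. A skin wound first fills with neutrophils and then monocytes, whose cytokines and chemokines call in further cells, while keratinocytes at the edge switch to a migratory programme. Skin also holds hair follicles that cycle between growth and rest, an adipose layer and, beneath it, a sheet of striated muscle, so a full biopsy reads all of these at once. An interaction value says only that 4 levels do not form a parallelogram on the log2 scale. It does not say which of the 4 levels is out of place, so the levels are given beside each value.

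No group had a second array. Group, pool and array therefore cannot be told apart, and the differences carry no test and no p-value. Since the difference of wound ratios uses every array, it cannot be computed without any 1 of them. Different probes of 1 gene spread by 0.25 log2 units (SD, a factor of 1.19), over 2849 genes with several probes detected on all 4 arrays. This spread leaves out any error that the probes of an array share. The share of probes detected was between 36.2% and 38.0% on the 4 arrays. Background differed more: the median non-normalized intensity of undetected probes was 89.3 in BLT2KO_punched and 93.3 in WT_punched skin. In BLT2KO and WT skin it was 63.9 and 65.1. No probe was named for the receptor gene Ltb4r2, which was not analysed here. Its neighbour Ltb4r1, which encodes the leukocyte leukotriene B4 receptor BLT1, had log2 levels of 8.04 in BLT2KO_punched and 6.42 in BLT2KO skin, against 10.63 in WT_punched and 10.24 in WT skin. Its wound ratio was 3.07-fold in BLT2KO and 1.31-fold in WT, and it is not known where its probe lies relative to the deletion. Epidermal markers were present: 34 of the 37 differentiation genes named on the array were detected on all 4 arrays.

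Most genes had like wound ratios in both genotypes. The difference of wound ratios had a median of 0.00 on the log2 scale and lay within 1.5-fold for 92.6% of the 9111 genes. It ranged between -0.86 at the 1st percentile and 1.06 at the 99th. The wound ratio was at least 2-fold larger in BLT2KO for 107 genes (1.17%) and at least 2-fold smaller for 52 (0.571%). Just past the larger side lay Edn2 and Hcls1 (2.00-fold each), and just short of it lay Egr1 (1.99-fold). On the smaller side, Txndc12 (2.00-fold) lay just past the threshold and Tnfrsf10b (1.99-fold) just short of it. Below, the difference means this value, the BLT2KO wound ratio minus the WT wound ratio in log2 units, and up and down are its directions. Genes past 2-fold were chosen by these same 4 levels, so what follows describes them.

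**Figure D1:**
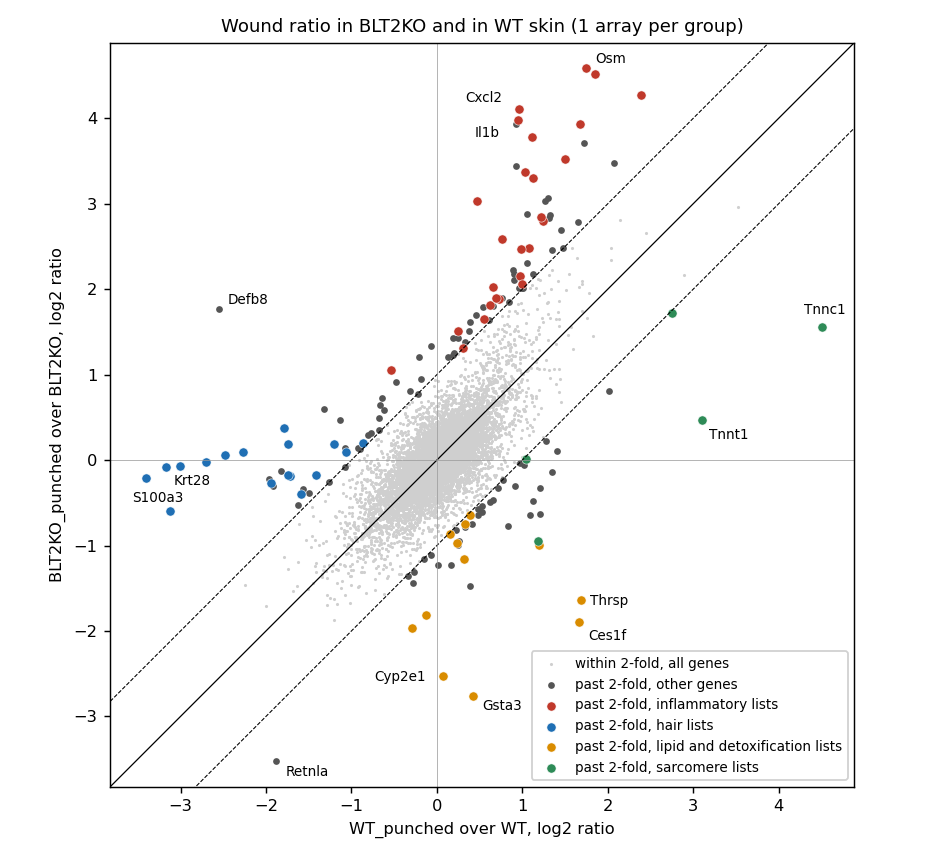
Each point is 1 of 9111 genes, with the log2 ratio of WT_punched over WT skin on the x axis and of BLT2KO_punched over BLT2KO skin on the y axis, each from 1 array per group. The solid line marks equal ratios and the dashed lines a 2-fold difference. Colours mark the genes past 2-fold that belong to the inflammatory, hair, lipid and detoxification, or sarcomere lists, which lie in different sectors: inflammatory genes at the top, hair genes at the left near a BLT2KO ratio of 0, lipid genes below and sarcomere genes at the right.

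The same value can be read as the genotype gap in punched skin minus the genotype gap in unwounded skin. The 107 and 52 genes were picked by this value, so the counts of gaps below follow in part from that choice. Among the 107 genes with the larger ratio in BLT2KO, 57 were at least 2-fold lower in BLT2KO than in WT before punching and within 2-fold afterwards. A further 19 were at least 2-fold higher in BLT2KO in both states, and the choice of genes makes their gap wider after punching. The median gap of the 107 was 0.24 in punched and -1.11 in unwounded skin, and 73 of them had the smaller gap in punched skin. Among the 52 genes with the smaller ratio in BLT2KO, 19 passed 2-fold between genotypes in punched skin only and 5 in unwounded skin only. Their median gap was -0.80 in punched and 0.48 in unwounded skin, and 50 of 52 were lower in BLT2KO_punched than in WT_punched skin. In unwounded skin, the gap of all 9111 genes passed 2-fold with BLT2KO below WT for 1.14% and with BLT2KO above WT for 0.648%. In punched skin these shares were 0.483% and 0.702%. The median gap of all genes was -0.03 in punched and -0.02 in unwounded skin. The share of all genes below WT by any amount in punched skin was not counted.

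A search for an array that stood apart asked for 3 levels within 2-fold of each other and the fourth at least 2-fold from their median. The BLT2KO array alone was low for 29 of the 107 genes and WT_punched alone low for 7, while BLT2KO_punched alone was high for only 1, Sgip1. Over all 9111 genes, BLT2KO alone was low for 150 (1.65%), WT_punched alone low for 36 (0.395%) and BLT2KO_punched alone high for 7 (0.0768%). Among the 52 genes, BLT2KO_punched alone was low for 12, WT_punched alone high for 6, WT alone low for 3 and BLT2KO alone high for 1, the hormone gene Stc1. The same classes held 42 (0.461%), 28 (0.307%), 13 (0.143%) and 41 (0.450%) of all 9111 genes. WT alone was high for 0 genes of either set and for 10 (0.110%) of all genes. No array stood apart by this definition for 70 of the 107 and 30 of the 52.

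**Figure D2:**
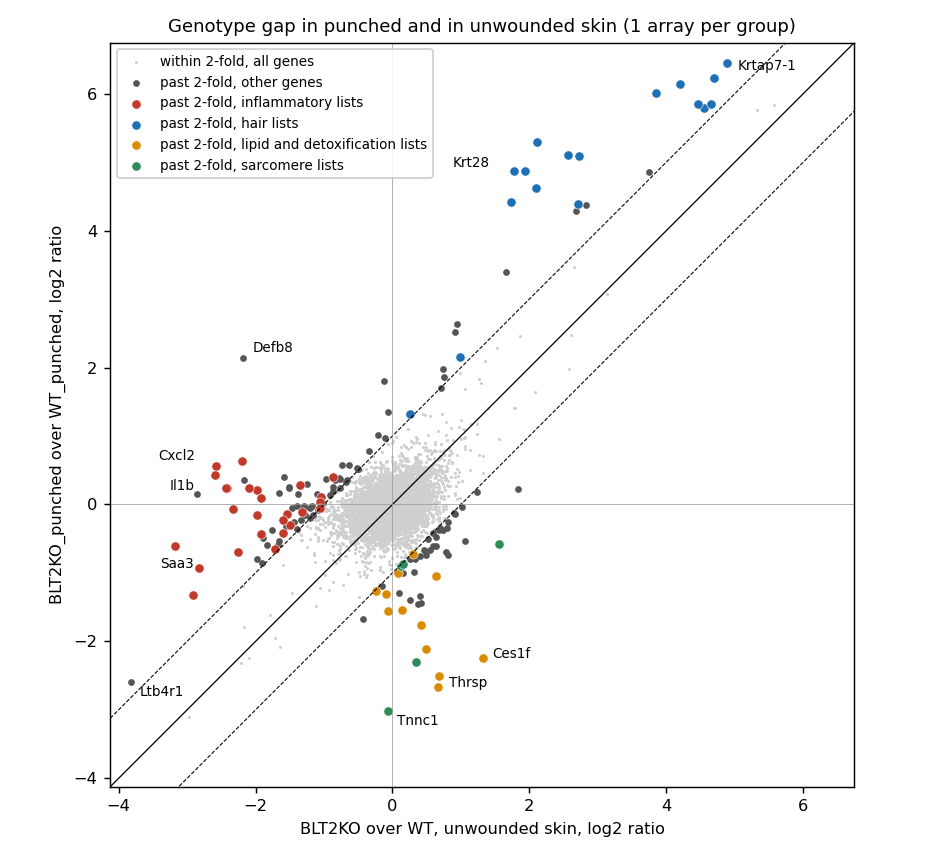
The log2 ratio of BLT2KO over WT skin is on the x axis for unwounded and on the y axis for punched skin, 1 point per gene and 1 array per group. Dashed lines mark a 2-fold difference between the gaps. Inflammatory genes past 2-fold lie left of 0 near a punched gap of 0, hair genes at the upper right above the diagonal, and lipid genes below 0 near an unwounded gap of 0. Defb8 lies alone at the upper left.

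Inflammatory genes made up the largest group of genes on the lists with a larger wound ratio in BLT2KO. Of 98 members of the neutrophil, monocyte and macrophage, chemokine, cytokine, NF-kappaB, interferon and metalloproteinase lists, 26 were at least 2-fold up on this difference and 0 at least 2-fold down. All 26 were at least 2-fold higher in punched than in unwounded BLT2KO skin, and 11 of them also in punched WT skin. Before punching, 25 of the 26 were at least 2-fold lower in BLT2KO than in WT. After punching, 25 were within 2-fold of WT, as were nearly all of the 9111 genes. Of all genes, 0.702% were at least 2-fold higher in BLT2KO_punched than in WT_punched skin and 0.483% at least 2-fold lower. The 26 were picked by these same levels, so their counts follow in part from that choice. Of all 98 members, 42 were at least 2-fold higher with punching in BLT2KO and 21 in WT. Before punching, 30 of the 98 were at least 2-fold lower in BLT2KO, and after punching 95 were within 2-fold of WT. Over all 9111 genes, 3.06% were at least 2-fold higher with punching in BLT2KO and 1.75% in WT, and 1.14% were at least 2-fold lower in BLT2KO before punching. The lists were joined into this group after the values were seen.

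The chemokine Cxcl2, which attracts neutrophils through their receptor CXCR2, had log2 levels of 11.41 in BLT2KO_punched and 7.30 in BLT2KO skin, against 10.84 in WT_punched and 9.88 in WT skin. The unwounded BLT2KO array was far below the others, and the punched arrays were within 1.48-fold of each other. A second Cxcl2 probe gave a difference of 3.14, beside 3.15 for the first. Ccl3 and Ccl4, chemokines of monocytes and other leukocytes, were also lowest in BLT2KO skin, with differences of 2.67 and 2.26. Cxcl1 had 9.75 and 6.95 in BLT2KO_punched and BLT2KO skin, against 10.44 and 9.20 in WT_punched and WT skin, so it stayed lower in BLT2KO in both states, with a difference of 1.56. Of 18 chemokines, 5 passed 2-fold upward, and the list median was 0.21. The promoter of Cxcl2 is shown because this gene had the largest difference among cytokines and chemokines. It is the RefSeq sequence of GRCm38.p6 (chr5:90903649-90903948, plus strand), running over 250 bases before and 50 after the start. Capitals mark matches to a kappaB-like pattern on either strand (GGG, any 2 bases, TT, any base, CC), at -97 and -78 from the start.
Cxcl2: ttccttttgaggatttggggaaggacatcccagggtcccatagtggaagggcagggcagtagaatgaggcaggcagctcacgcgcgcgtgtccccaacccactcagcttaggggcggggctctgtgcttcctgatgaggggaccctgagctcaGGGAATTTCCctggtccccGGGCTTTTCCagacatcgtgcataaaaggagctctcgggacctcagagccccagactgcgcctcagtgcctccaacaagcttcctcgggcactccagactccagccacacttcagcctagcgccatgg

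Among cytokines, Il1b, the secreted interleukin of activated myeloid cells, had levels of 12.22 in BLT2KO_punched and 8.24 in BLT2KO skin, against 11.79 in WT_punched and 10.84 in WT skin. Osm, the gp130-family cytokine of neutrophils and macrophages, had levels of 10.67 and 6.09 in BLT2KO_punched and BLT2KO skin, against 10.03 and 8.28 in WT_punched and WT skin. In each case punched BLT2KO skin was slightly above punched WT skin and unwounded BLT2KO skin was far below unwounded WT skin. Tnf differed less, by 1.37, and its second probe gave 1.38. Il24, an interleukin of the IL-10 family, stayed lower in BLT2KO in both states, at 6.91 and 5.86 in BLT2KO_punched and BLT2KO skin, against 8.23 and 8.77 in WT_punched and WT skin. It was 2.07-fold higher with punching in BLT2KO and 1.45-fold lower in WT. Of 11 members of the interleukin-1, oncostatin and TNF list, 5 passed 2-fold and the median was 0.94. That median was 0.38 without background correction, 0.45 in the deposited processed values and 0.34 over members detected on at least 1 array.

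Neutrophil markers were the list with the largest share past 2-fold among leukocyte lists. Of 9 members, 7 passed 2-fold upward, all 9 were above 0 and the median was 1.41. Clec4d, a C-type lectin of myeloid cells, had levels of 10.92 in BLT2KO_punched and 7.55 in BLT2KO skin, against 10.68 in WT_punched and 9.65 in WT skin. Fpr2, a formyl peptide receptor, had 10.60 and 7.08 in BLT2KO_punched and BLT2KO skin, against 10.50 and 8.99 in WT_punched and WT skin. Retnlg and S100a9 differed by 1.89 and 1.82. The summed linear level of the 9 markers, on the log2 scale, was 14.71 in BLT2KO_punched and 12.56 in BLT2KO skin, against 14.90 in WT_punched and 14.04 in WT skin. This sum was lowest on the BLT2KO array but is weighted to bright genes. S100a8 alone had 13.67 and 11.77 in BLT2KO_punched and BLT2KO skin, against 13.78 and 13.08 in WT_punched and WT skin. The median gap of the 9 between BLT2KO and WT was -1.72 in unwounded and -0.14 in punched skin. In these bulk samples, fewer cells of a type and less RNA per cell cannot be told apart. The filter on detection left out Trem1, Clec4e and Cxcr1, which were detected on every array but BLT2KO, and Ltf, which was detected on the punched arrays. Trem1, a receptor that amplifies myeloid activation, had levels of 8.17 and 4.40 in BLT2KO_punched and BLT2KO skin, against 7.86 and 5.70 in WT_punched and WT skin, the BLT2KO value being below detection.

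Of 15 monocyte and macrophage markers, 2 passed 2-fold and 13 were above 0, with a median of 0.40. Acod1, the enzyme that makes itaconate in activated macrophages, had levels of 10.13 and 5.61 in BLT2KO_punched and BLT2KO skin, against 9.88 and 8.03 in WT_punched and WT skin, and its second probe gave 1.70 beside 2.66. Cd14, the endotoxin co-receptor, differed by 2.18. Of 13 genes of alternatively activated and resident macrophages detected on all arrays, 0 passed 2-fold upward and 1 downward, 5 were above 0, and the median was -0.15. The filter left out Chil3, Chil4 and Ccl24 of this list, which were detected on every array but BLT2KO. Chil3, a chitinase-like gene, had levels of 7.64 and 4.66 in BLT2KO_punched and BLT2KO skin, against 8.39 and 8.11 in WT_punched and WT skin, and Chil4 had 7.26 and 5.19 in BLT2KO_punched and BLT2KO skin, against 8.37 and 7.95 in WT_punched and WT skin. Both were lowest in BLT2KO skin, like the inflammatory genes past 2-fold. The gene past 2-fold downward, Retnla, a resistin-like gene, was lower after punching in both genotypes, at 5.77 in BLT2KO_punched and 9.29 in BLT2KO skin, against 7.16 in WT_punched and 9.04 in WT skin. Its unwounded levels were within 1.19-fold, and it was 2.63-fold lower in BLT2KO_punched than in WT_punched skin.

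Of 17 NF-kappaB response genes, 3 passed 2-fold upward, with a median of 0.40. Saa3, an acute-phase apolipoprotein, had levels of 12.81 in BLT2KO_punched and 9.78 in BLT2KO skin, against 13.42 in WT_punched and 12.95 in WT skin, so that BLT2KO alone stood apart. The stress gene Ier3 differed by 1.26 and Socs3, the feedback inhibitor of STAT3 signalling, by 1.01. Of 13 interferon response genes, 2 passed 2-fold, Isg15 (1.15) and Oasl2 (1.10), and 11 were above 0 with a median of 0.36. In the metalloproteinase and plasminogen list, the urokinase receptor Plaur (1.63) and the gelatinase Mmp9 (1.48) passed among 15 members, and the median was 0.17. Mmp9 had levels of 9.63 and 7.15 in BLT2KO_punched and BLT2KO skin, against 10.06 and 9.07 in WT_punched and WT skin. Hdc, the histamine-making enzyme placed on the mast cell list, had levels of 13.05 and 9.60 in BLT2KO_punched and BLT2KO skin, against 12.69 and 11.76 in WT_punched and WT skin. It was the only one of 8 mast cell genes past 2-fold, and the list median was 0.25.

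Among 21 keratinocyte genes of the wound edge, 4 were at least 2-fold up on this difference and 0 at least 2-fold down, with a median of 0.42. Krt6b, a keratin of activated keratinocytes, had levels of 13.45 and 12.20 in BLT2KO_punched and BLT2KO skin, against 13.80 and 13.60 in WT_punched and WT skin, and its second probe gave 1.22 beside 1.05. The protease inhibitor Slpi had 11.88 and 10.55 in BLT2KO_punched and BLT2KO skin, against 11.94 and 12.01 in WT_punched and WT skin. For both, 3 arrays were close and BLT2KO was low. The matrix protein Tnc had the same form, with a difference of 1.18 from 1 probe and 1.56 from another, and Cstdc4, a stefin-like protease inhibitor gene, had the largest difference of the list at 3.01. Terminal differentiation genes leaned the other way: 30 of 34 were below 0, the median was -0.22, and 1 passed 2-fold, Krt1 (-1.04). Krt1 had levels of 12.37 in BLT2KO_punched and 13.18 in BLT2KO skin, against 12.40 in WT_punched and 12.17 in WT skin. 0 of 8 tight junction genes passed 2-fold, their median was -0.05, and Cldn3 was the farthest from 0, at 0.64.

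**Figure D3:**
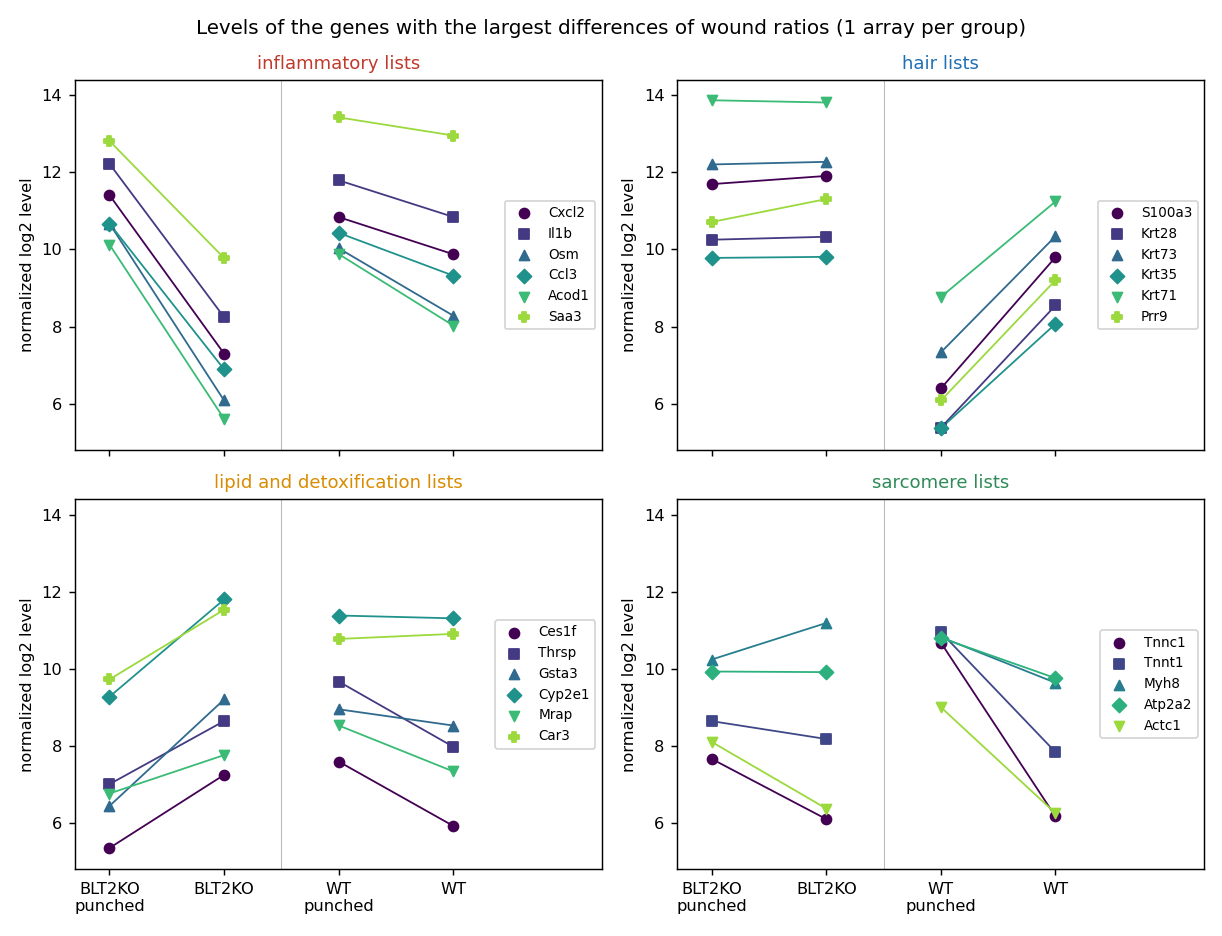
Normalized log2 levels (y axis) on the 4 arrays (x axis) of the up to 6 genes per group of lists with the largest differences of wound ratios past 2-fold. Lines join punched and unwounded skin of 1 genotype. The inflammatory genes are lowest on the BLT2KO array, the hair genes are level between the BLT2KO arrays and lowest on WT_punched, the lipid and detoxification genes are all lowest on BLT2KO_punched, and Tnnc1, Tnnt1, Atp2a2 and Actc1 are highest on WT_punched.

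Hair follicle genes also had larger ratios in BLT2KO, with a different order of arrays. Of 29 members of the 4 hair lists, 17 were at least 2-fold up on this difference and 0 at least 2-fold down. In BLT2KO skin, 0 of the 17 differed 2-fold with punching: their log2 wound ratios lay between -0.60 and 0.37. In WT skin, 16 of the 17 were at least 2-fold lower after punching, against 1.45% of all 9111 genes. All 17 were at least 2-fold higher in BLT2KO_punched than in WT_punched skin (0.702% of all genes), and 15 were so in unwounded skin (0.648%). The 17 were picked by these same levels, and the 4 lists were chosen and joined with earlier results of these data known. Of all 29 members, 18 were at least 2-fold lower with punching in WT. In BLT2KO, 22 of the 29 were at least 2-fold higher than in WT in punched and 20 in unwounded skin. The difference of wound ratios therefore rests on WT levels that were lower after punching, next to BLT2KO levels that were high in both states. Hair cycle stage and punching cannot be told apart where each group is 1 pool.

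The inner root sheath keratins, which form the sheath that moulds the growing hair, had 5 of 5 members past 2-fold and a median of 2.53. Of this list, 8 genes were named on the array. The filter left out Krt72, which was not detected on WT_punched, and Padi3, which was detected on the BLT2KO arrays alone. Krt28 had levels of 10.25 in BLT2KO_punched and 10.33 in BLT2KO skin, against 5.38 in WT_punched and 8.55 in WT skin. Krt71 had 13.87 and 13.81 in BLT2KO_punched and BLT2KO skin, against 8.77 and 11.24 in WT_punched and WT skin. The BLT2KO levels of both genes were nearly equal, while the WT levels were lower and lowest after punching. Krt73 differed by 2.94, and by 2.90 on its second probe. Krt26 (2.36) and Krt27 (1.68) were the other members. The WT_punched levels of Krt28 and Krt26 (5.33) were dim, within 0.5 log2 of the lowest detected on that array (5.20). Across the settings that change values, the difference came as low as 1.79 for Krt28 and 1.23 for Krt26. The promoter of Krt28 is shown as that of the hair keratin with the largest difference (RefSeq, GRCm38.p6, chr11:99374854-99375153, minus strand). Capitals mark TATAAA, at -30 from the start.
Krt28: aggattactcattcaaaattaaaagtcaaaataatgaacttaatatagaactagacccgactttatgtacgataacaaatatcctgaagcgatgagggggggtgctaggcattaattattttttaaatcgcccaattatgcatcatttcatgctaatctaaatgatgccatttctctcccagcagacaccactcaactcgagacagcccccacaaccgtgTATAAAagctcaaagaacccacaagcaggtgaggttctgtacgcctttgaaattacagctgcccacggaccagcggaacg

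The hair shaft keratins, the cortex and cuticle keratins of the fibre, had 5 of 6 members past 2-fold and a median of 1.66. Of this list, 10 genes were named on the array. The filter left out Krt31 and Krt82, which were not detected on WT_punched. Krt35 had levels of 9.78 and 9.81 in BLT2KO_punched and BLT2KO skin, against 5.37 and 8.07 in WT_punched and WT skin. That WT_punched level was also dim, and across the settings that change values the Krt35 difference came as low as 1.49. For Krt34 the genotype gap was already wide before punching, with 12.95 and 12.76 in BLT2KO_punched and BLT2KO skin, against 6.81 and 8.55 in WT_punched and WT skin. S100a3, a calcium-binding protein of the hair cuticle, had 11.69 and 11.91 in BLT2KO_punched and BLT2KO skin, against 6.40 and 9.80 in WT_punched and WT skin. It and Prr9 (2.52) led the follicle regulator list, of whose 12 members 4 passed 2-fold, with a median of 0.28. The homeobox regulators Dlx3 (1.16) and Msx1 (1.06) were the others past it. Keratin-associated proteins, the matrix between keratin filaments, had 3 of 6 past 2-fold, Krtap7-1 (1.57), Krtap3-1 (1.53) and Krtap4-7 (1.19). All of these turned sign on the linear scale, and without background correction they were 0.81, 0.85 and 0.36, short of 2-fold. The list median was 0.81, and 0.20 without background correction. Only 6 of the 38 named on the array were members: 12 were detected on the BLT2KO arrays alone, and 13 on those and WT. The pigment cell list had 1 of 8 past 2-fold, Mlana (1.10), and a median of 0.25.

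The scale on which ratios were compared mattered for many of these genes. Of the 107 genes with the larger log2 ratio in BLT2KO, 92 kept the sign when the difference was taken on the linear normalized signal, and 15 turned. Of the 15, 6 were on the hair lists and 3 on the inflammatory lists. Krt27 is an example: its level was 13.83 in BLT2KO_punched and 14.09 in BLT2KO skin, against 9.45 in WT_punched and 11.39 in WT skin. The small BLT2KO ratio of a bright gene outweighed, in signal, the larger WT ratio of a dimmer one. Prr9, Retnlg and Ly6g6d also turned. All 52 genes with the smaller ratio in BLT2KO kept their sign on the linear scale.

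On the side of smaller ratios in BLT2KO, lipid and detoxification genes were the largest group on the lists. Of 49 members of these lists, 12 were at least 2-fold down on the difference and 0 at least 2-fold up. After punching, 11 of the 12 were at least 2-fold lower in BLT2KO than in WT (0.483% of all genes). Before punching 11 were within 2-fold, as were nearly all genes (0.648% at least 2-fold higher in BLT2KO and 1.14% lower). With punching, 7 of the 12 were at least 2-fold lower in BLT2KO (1.70% of all genes) and 3 at least 2-fold higher in WT. For 6 of them, BLT2KO_punched was the array that stood apart. The 12 were picked by these same levels, and the lists were chosen and joined with earlier results of these data known. Of all 49 members, 12 were at least 2-fold lower in BLT2KO than in WT after punching, and 47 were within 2-fold before. With punching, 10 of the 49 were at least 2-fold lower in BLT2KO and 3 at least 2-fold higher in WT.

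Among detoxification enzymes, Gsta3, a glutathione transferase, had levels of 6.44 in BLT2KO_punched and 9.20 in BLT2KO skin, against 8.95 in WT_punched and 8.53 in WT skin. Cyp2e1, a cytochrome P450 that oxidises small molecules, had 9.28 and 11.80 in BLT2KO_punched and BLT2KO skin, against 11.38 and 11.31 in WT_punched and WT skin. In both, 3 arrays lay together and BLT2KO_punched was low. The methyltransferase Inmt differed by -1.67, and by -1.43 on its second probe. The carboxylesterase Ces1f had 2 high and 2 low arrays, with 5.35 and 7.25 in BLT2KO_punched and BLT2KO skin, against 7.60 and 5.93 in WT_punched and WT skin. It was 3.72-fold lower with punching in BLT2KO and 3.18-fold higher in WT. Of 27 members, 5 passed 2-fold, 24 were below 0 and the median was -0.27. The promoter of Gsta3 (RefSeq, GRCm38.p6, chr1:21240335-21240634, plus strand) is shown as that of the detoxification gene with the largest difference among those with 1 listed start. It held no match to the kappaB-like pattern, TATAAA or TGANTCA.
Gsta3: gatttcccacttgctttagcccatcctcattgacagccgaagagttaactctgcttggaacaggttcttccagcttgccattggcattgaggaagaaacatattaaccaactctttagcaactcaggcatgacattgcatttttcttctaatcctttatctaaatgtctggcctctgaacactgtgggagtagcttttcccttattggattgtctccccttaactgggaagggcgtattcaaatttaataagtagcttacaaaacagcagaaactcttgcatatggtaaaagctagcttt

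The adipocyte and lipogenesis list had 7 of 22 members at least 2-fold smaller in BLT2KO, 21 below 0 and a median of -0.72. Thrsp, a regulator of fatty acid synthesis, had levels of 7.01 in BLT2KO_punched and 8.65 in BLT2KO skin, against 9.67 in WT_punched and 7.98 in WT skin. Mrap, a melanocortin receptor partner of adipocytes, had 6.77 and 7.76 in BLT2KO_punched and BLT2KO skin, against 8.53 and 7.34 in WT_punched and WT skin, so that WT_punched stood highest. Car3, the carbonic anhydrase of adipocytes, had 9.72 and 11.53 in BLT2KO_punched and BLT2KO skin, against 10.77 and 10.91 in WT_punched and WT skin. Cidec, a lipid droplet protein, differed by -1.48 and the adipokine Adipoq by -1.21. The summed linear level of the 22 genes, on the log2 scale, was 14.86 in BLT2KO_punched and 15.33 in BLT2KO skin, against 15.31 in WT_punched and 15.19 in WT skin. Whether the amount of fat in each biopsy had a part in these values was not tested.

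Sarcomere genes of slow and developing muscle also had smaller ratios in BLT2KO, and WT_punched was the highest array for 4 of the 5 past 2-fold. Of 14 members, 5 passed 2-fold downward and 12 were below 0, with a median of -0.24. Tnnc1, the troponin C of slow and cardiac muscle, had levels of 7.66 in BLT2KO_punched and 6.10 in BLT2KO skin, against 10.68 in WT_punched and 6.17 in WT skin. Tnnt1, the slow troponin T, had 8.64 and 8.18 in BLT2KO_punched and BLT2KO skin, against 10.95 and 7.84 in WT_punched and WT skin. Both were near equal in unwounded skin and highest in WT_punched. Myh8, the perinatal myosin, had another order, with 10.24 and 11.19 in BLT2KO_punched and BLT2KO skin, against 10.82 and 9.64 in WT_punched and WT skin, and other probes averaged -2.05 beside -2.13. Actc1 and the calcium pump Atp2a2 passed narrowly, at -1.02 and -1.03, and other Atp2a2 probes averaged -0.63. Myl2 and Myl3, the slow myosin light chains, were not members. Myl2 had 5.37 and 4.43 in BLT2KO_punched and BLT2KO skin, against 10.20 and 4.56 in WT_punched and WT skin, and Myl3 was detected on WT_punched alone.

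Fast muscle genes had differences nearer 0. Of 26 members, 0 passed 2-fold, the median was 0.09, and Myh1 was the farthest from 0, at 0.78. The summed linear level of the fast list, on the log2 scale, was 17.04 in BLT2KO_punched and 17.07 in BLT2KO skin, against 17.08 in WT_punched and 17.17 in WT skin. The difference between slow and fast lists was not tested. The promoter of Tnnc1 (RefSeq, GRCm38.p6, chr14:31208062-31208361, plus strand) is shown as that of the sarcomere gene with the largest difference. It held none of the 3 patterns searched.
Tnnc1: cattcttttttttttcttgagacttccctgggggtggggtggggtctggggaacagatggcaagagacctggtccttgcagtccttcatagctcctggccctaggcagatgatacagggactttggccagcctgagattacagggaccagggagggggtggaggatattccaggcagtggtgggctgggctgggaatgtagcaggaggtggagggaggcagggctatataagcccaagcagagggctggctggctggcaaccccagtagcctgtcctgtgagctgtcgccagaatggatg

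Across promoters, TATAAA on either strand was found in 25 of the 78 genes with a larger ratio in BLT2KO that had a promoter sequence (32.1%) and in 12 of the 39 with a smaller ratio (30.8%). Among all members with a promoter the share was 9.73% of 7346 genes, and among all 32851 promoters of the table, of the same length, it was 13.6%. The kappaB-like pattern was found in 7.69% of the genes with a larger and 5.13% of those with a smaller ratio in BLT2KO, against 6.15% of all members and 4.79% of all promoters. The AP-1 pattern TGANTCA was found in 7.69% of the genes in each direction, against 6.93% of all members and 7.81% of all promoters. A gene counted when any of its listed promoters held the letters, whereas the promoters of the whole table were counted singly. A match is no evidence of binding, and these shares were not tested.

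Some large differences fell on genes of no list or of no group above. Defb8, a beta-defensin, had the largest value of all, with levels of 8.14 in BLT2KO_punched and 6.37 in BLT2KO skin, against 5.99 in WT_punched and 8.55 in WT skin. It was 3.41-fold higher with punching in BLT2KO and 5.88-fold lower in WT. Wdfy1 (1.92) and the methyltransferase Gnmt (1.70) were low on WT_punched alone, as was the epithelial metallothionein Mt4 (1.23). On the other side, the phospholipid enzyme Chpt1 (-1.86, other probes -1.65 on average) was low on BLT2KO_punched alone. Cdo1, cysteine dioxygenase, and Cblc were high on WT_punched alone, at -1.83 and -1.73. Cyp2g1 (-1.61) and the serpin Serpinb12 (-1.60) were low on WT alone. Thbs1, a matrix protein of clots and wounds, differed by 1.55 and was the only 1 of 21 collagen and matrix genes past 2-fold, with a list median of -0.09. Of the 107 genes, 56 were on no list, and of the 52, 30.

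**Figure D4:**
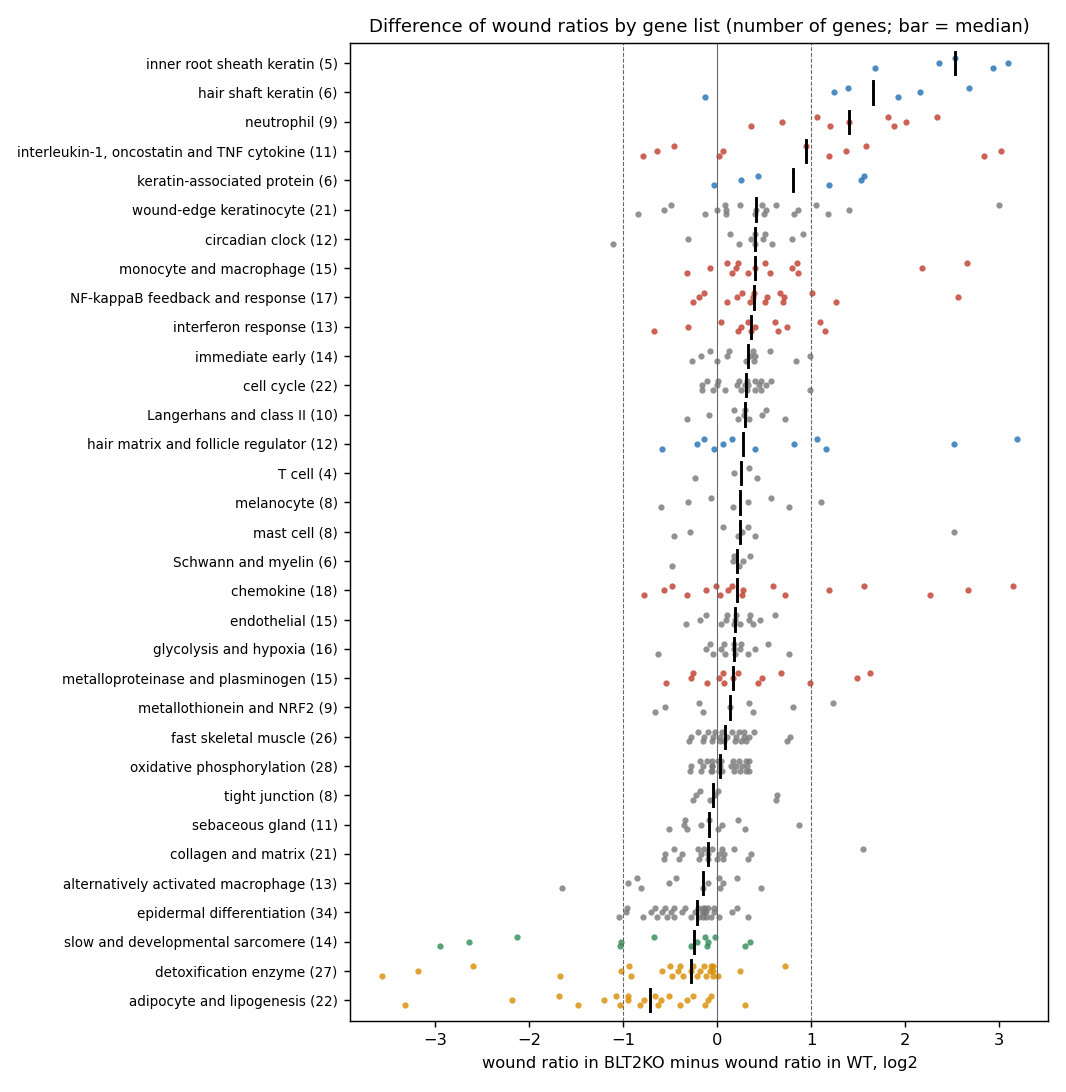
Each point is 1 gene, placed on the x axis by its wound ratio in BLT2KO minus that in WT on the log2 scale, in rows by gene list with at least 4 genes detected on all arrays. Bars are list medians, dashed lines mark 2-fold, and colours mark the groups of lists as in the plot of wound ratios. The root sheath, hair shaft and neutrophil lists have medians past 1, and the adipocyte list the lowest median, -0.72.

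Other cell types gave small values. 0 genes passed 2-fold among 15 endothelial (median 0.19), 10 Langerhans and class II (0.29), 4 T cell (0.26), 6 Schwann and myelin (0.21) and 11 sebaceous gland genes (-0.09). The same was true of 28 oxidative phosphorylation (0.03), 16 glycolysis and hypoxia (0.18) and 14 immediate early genes (0.33). The metallothionein and NRF2 list had 1 of 9 past 2-fold, Mt4, and a median of 0.14. These medians stand beside one of 0.00 for all 9111 genes.

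Different probes gave like values for most differences where a gene had several. Of 22 genes past 2-fold with more than 1 probe detected on all arrays, 20 had the same sign on every other probe and 15 were past 2-fold on every other probe. C6, a complement component, and Exosc6 had a probe of opposite sign, 0.40 beside -1.12 and -0.15 beside 1.07. Mrgpra2b kept its sign, but its other probe gave only 0.04 beside 1.40. Dim levels were common among the genes past 2-fold. A level within 0.5 log2 of the lowest detected on its array occurred for 28.0% of the 107 and 32.7% of the 52, against 9.99% of all members. For the larger ratios this was mostly the BLT2KO (20 genes) and WT_punched arrays (14 genes), and for the smaller ones the WT (14) and BLT2KO_punched (6) arrays.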

How the data were processed

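Skin RNA of 4 pools was amplified, biotin-labelled and hybridised to Illumina MouseWG-6 BeadChips, 1 array per group, and exported with BeadStudio (version not given in the sources used here), per the series' design text. For 45281 probes the authors deposited non-normalized linear intensity values, with a detection p-value beside each, per the file headers. A second table of deposited intensity values equalled the first times 1 constant per array (0.950 for BLT2KO_punched, 1.12 for BLT2KO, 0.963 for WT_punched and 1.24 for WT), which gave each array a mean of 348. It served as an alternative.

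Background was removed with the neqc model of limma 3.58.1 (R 4.3.3) from the detection p-values, an offset of 16 was added, arrays were quantile-normalized and values put on the log2 scale. Python 3.11.15, numpy 2.4.6, pandas 2.3.3 and matplotlib 3.10.9 did the rest. Of the probes, 34885 were named for 1 gene, 18 for several and 10378 were not listed by the platform annotation, and 34807 matched RefSeq gene IDs of GRCm38.p6. The probe with the highest mean stood for a gene. The calculation was also run on simulated arrays, with known folds put into some probes of the BLT2KO_punched array alone. That run bears on the computation and says nothing of differences between pools. Of 745 entries in 34 gene lists, 665 were on the array and 479 passed the detection filter. Named genes were the 15 highest and 15 lowest, up to 4 past 2-fold per list or else the farthest from 0, and the up to 4 largest of each class of shape. Members and lists were chosen with earlier results of these data known. Promoters were shown for genes with 1 listed start, which passed over S100a3. Alternatives were the background, offset, normalization, source table, probe rule, detection filter, thresholds and the linear scale. With so few arrays, their number sets the precision.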

Additional observations from a re-analysis of the deposited data

Results flagged for a closer look

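The wound ratios of 3 genes passed 2-fold in opposite directions in BLT2KO and WT skin, which is what set them aside. The difference was not tested, since each group was 1 array. Defb8 was 3.41-fold higher with punching in BLT2KO and 5.88-fold lower in WT, a difference of 4.32 on the log2 scale. Ces1f was 3.72-fold lower in BLT2KO and 3.18-fold higher in WT (-3.56), and Thrsp 3.11-fold lower in BLT2KO and 3.23-fold higher in WT (-3.33). Each had 1 probe detected on all 4 arrays, so no second probe bears on them. Ces1f was set aside only under some of the processing. Its difference shrank to -1.87 in the values as deposited and to -1.93 with the background left in. At differences of that size, opposite wound ratios cannot both pass 2-fold. The Ces1f level of 5.35 in BLT2KO_punched skin was also dim, within 0.5 log2 of the lowest detected on that array (5.10).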

How the results depend on the processing

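The sign was kept by all 159 genes past 2-fold under each of the 5 settings that change log2 values, while on the linear scale 15 of the 107 larger ratios turned. The counts depended on how background was treated: 67 of the 159 stayed past 2-fold with no background correction, and 70 did in the values as deposited. The 107 larger and 52 smaller ratios became 46 and 21 without background correction, 63 and 28 with an offset of 50, and 51 and 19 in the deposited processed values, which are not background-corrected. Median scaling gave 92 and 59, the mean of probes 107 and 51, and a detection p-value under 0.05 gave 131 and 63. With detection on at least 1 array they became 175 and 105. At 1.5-fold they were 377 and 298, and at 3-fold 36 and 16. Across the 5 settings that change values, 44 larger and 19 smaller ratios stayed past 2-fold. Many genes named above as past 2-fold fell short of it in at least 1 of these settings, and those given here are examples. Among them, the lowest value was 0.68 for Tnf, 0.79 for Isg15, 0.72 for Oasl2, 0.80 for Gnmt and 0.50 for Mt4. It was 0.60 for Msx1, 0.73 for Mlana, 0.88 for Thbs1, 0.89 for Socs3 and 0.96 for Dlx3. For Retnla the value nearest 0 was -0.96. That value was -0.70 for Cblc, -0.77 for Cyp2g1, -0.73 for Stc1, -0.70 for Actc1 and -0.76 for Atp2a2.

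Counts of shapes moved with them. In the order of a gap in unwounded skin only (57), WT alone lower with punching (28), BLT2KO alone low (29), a gap in punched skin only (19), BLT2KO_punched alone low (12) and WT_punched alone high (6), they were 27, 11, 12, 12, 7 and 3 without background correction, 34, 18, 14, 16, 9 and 3 with an offset of 50, and 29, 11, 12, 12, 4 and 2 in the deposited values. Median scaling left 14 with BLT2KO alone low. Detection on at least 1 array gave 30 gaps in punched skin only and 13 with WT_punched alone high. With 1.5-fold for the classes, 10 had BLT2KO alone low and 29 a gap in punched skin only. List medians kept their side of 0 under all settings for the neutrophil (1.13 to 1.41), inner root sheath (1.79 to 2.53), hair shaft (1.12 to 1.72) and adipocyte lists (-0.77 to -0.47). The interleukin-1, oncostatin and TNF (0.34 to 0.94) and keratin-associated protein medians (0.19 to 0.86) were above 0 in all settings but varied more than 1.5 times. The T cell (-0.20 to 0.26), metallothionein and NRF2 (-0.01 to 0.16) and oxidative phosphorylation (-0.06 to 0.04) medians lay on either side of 0. No paired analysis was possible because each group had 1 array, and for the same reason no array could be left out.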

Other observations

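Clock genes, which keep daily time in skin cells, had a median wound ratio of -0.44 in BLT2KO and -0.72 in WT. Of 12 members, 10 had differences above 0 and the median was 0.41. Dbp, an output gene of the clock, had log2 levels of 10.78 in BLT2KO_punched and 11.43 in BLT2KO skin, against 10.46 in WT_punched and 11.91 in WT skin. Tef had 8.99 and 9.53 in BLT2KO_punched and BLT2KO skin, against 8.06 and 9.52 in WT_punched and WT skin. Both were lower after punching in both genotypes. Arntl, which cycles against Dbp, was the 1 member past 2-fold, at -1.10, with 5.89 and 6.67 in BLT2KO_punched and BLT2KO skin, against 6.26 and 5.93 in WT_punched and WT skin. These are dim levels, and across the settings that change values the Arntl difference came as near to 0 as -0.49. Dbp and Tef were chosen after their values were seen. The labels do not give the hour at which each pool was taken.

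Red cell genes had smaller ratios in BLT2KO. Of 3 members, 2 passed 2-fold, Alas2 (-1.54) and Hba-a1 (-1.02), and the median was -1.02. Hba-a1 had levels of 13.58 in BLT2KO_punched and 13.62 in BLT2KO skin, against 14.09 in WT_punched and 13.11 in WT skin. Of 22 cell cycle genes, 18 were above 0 and 0 passed 2-fold (median 0.31), with Mcm3 the farthest from 0, at 0.99. Among 1765 unnamed probes detected on all 4 arrays, 19 had a ratio at least 2-fold larger and 12 at least 2-fold smaller in BLT2KO.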
